A study of Mus musculus with 12 samples.

Results

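The genes of ketone body utilisation were examined in RNA-seq data from the mouse left ventricle. They were the rows of the raw count table whose Ensembl identifiers carry the symbols Bdh1, Oxct1, Acat1 or Acat2 in GENCODE M21, and all 4 were found among 26921 genes. Libraries were compared between 2 genotypes at 16 weeks of age. WT mice (n = 6) carried floxed Gch1 alleles without Cre, and cmGch1 KO mice (n = 6) carried the floxed alleles together with Cre recombinase under the α-MHC promoter, which drives deletion in cardiomyocytes. Gch1 encodes GTP cyclohydrolase, the first enzyme of tetrahydrobiopterin synthesis. RNA was taken from whole tissue, so that the cells of the ventricle that do not express Cre kept Gch1 and contributed to every value.

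Ketone bodies are made in the liver during fasting and are burned by the heart as a fuel beside fatty acids and glucose. In heart mitochondria, Bdh1 (3-hydroxybutyrate dehydrogenase) oxidises 3-hydroxybutyrate to acetoacetate, and Oxct1 (succinyl-CoA:3-oxoacid CoA transferase) transfers coenzyme A from succinyl-CoA to acetoacetate. Acat1 (mitochondrial acetoacetyl-CoA thiolase) then splits acetoacetyl-CoA into acetyl-CoA, which enters the TCA cycle, and it also takes part in isoleucine breakdown. Acat2 is the cytosolic thiolase, which works in the opposite sense, joining acetyl-CoA at the start of sterol synthesis.

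The libraries held between 19921398 and 37917806 counts, with a median of 32525513 in WT and 25349019 in cmGch1 KO. Gch1 was lower in each cmGch1 KO library than in each WT library (log2 fold change -0.96, SE 0.113, adjusted p = 6.88e-04). The cmGch1 KO replicates 2 and 3 stood apart. Xist was at 86.7 and 99.0 cpm (counts scaled by library size and TMM factor) there and at no more than 0.234 cpm in the other 10 libraries, and the summed Y-linked genes were at 0 there and at 167.0 cpm or more elsewhere. These 2 libraries also had the smallest mitochondrial shares of counts, 14.9% and 16.1%, against 18.3% to 22.9% in the others. The labels give no sex, and the members and some other results are also given without this pair. Of the 11225 genes tested, 50 (0.445%) were lower and 76 (0.677%) were higher in cmGch1 KO at an adjusted p under 0.05. Without this pair, 18 were lower and 20 were higher at that threshold. The study's methods take the individual animal as the unit of replication.

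The 4 genes lie on 4 chromosomes of GRCm38. Bdh1 (ENSMUSG00000046598) spans chr16:31422280-31458901 on the plus strand and Oxct1 (ENSMUSG00000022186) spans chr15:4026383-4155344 on the plus strand. Acat1 (ENSMUSG00000032047) spans chr9:53580522-53610382 on the minus strand. Acat2 (ENSMUSG00000023832) spans chr17:12942890-12960747 on the minus strand, with its near copy Acat3 lying 2289 bases away on the same strand.

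The sequence before the start of 3 of the 4 genes was read from RefSeq promoters (GRCm38.p6), with no entry matched for Acat1. Each window holds 200 bases, from 250 to 51 bases before an annotated start, written 5′ to 3′ on the strand of the gene with CpG dinucleotides in capitals. They are shown because in 2 of the 4 windows, those of Oxct1 and of the downstream start of Bdh1, all 200 bases lie within an exon of a gene annotated on the opposite strand. The windows are Bdh1 upstream start (chr16:31422047-31422246, plus strand), Bdh1 downstream start (chr16:31428503-31428702, plus strand), Oxct1 (chr15:4026178-4026377, plus strand) and Acat2 (chr17:12960776-12960975, minus strand).
Bdh1 upstream start: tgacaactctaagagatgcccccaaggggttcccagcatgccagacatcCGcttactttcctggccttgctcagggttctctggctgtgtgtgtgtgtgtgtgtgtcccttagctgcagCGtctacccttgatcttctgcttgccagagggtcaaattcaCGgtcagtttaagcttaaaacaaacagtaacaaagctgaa
Bdh1 downstream start: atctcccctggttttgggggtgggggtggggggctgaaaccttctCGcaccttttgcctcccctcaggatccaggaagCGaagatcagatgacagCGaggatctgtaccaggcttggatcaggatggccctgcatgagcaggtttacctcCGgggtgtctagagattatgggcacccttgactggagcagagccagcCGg
Oxct1: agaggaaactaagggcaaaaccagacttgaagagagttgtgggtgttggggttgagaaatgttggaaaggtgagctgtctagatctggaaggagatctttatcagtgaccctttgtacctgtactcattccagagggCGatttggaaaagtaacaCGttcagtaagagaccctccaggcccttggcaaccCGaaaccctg
Acat2: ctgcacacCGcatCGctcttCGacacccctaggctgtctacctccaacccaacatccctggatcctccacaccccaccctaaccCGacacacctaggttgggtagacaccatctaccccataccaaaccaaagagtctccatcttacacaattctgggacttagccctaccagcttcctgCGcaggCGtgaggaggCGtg

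The windows hold 3 CpG in Oxct1, 3 and 5 in the upstream and downstream starts of Bdh1, and 7 in Acat2, against a median of 4 (quartiles 2 and 11) over 32851 RefSeq windows of the same length. None of 6 motifs searched on both strands was found in these 4 windows. The motifs were TATAAA (in 9.14% of all windows), CCAAT (28.4%), GGGCGG (24.6%), AGGTCA (11.4%), TCAAGGTCA (0.323%), which contains AGGTCA, and CACGTG (4.34%). This says only that these letters are not in these windows.

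The opposite-strand gene in the Oxct1 window is BC037032 (ENSMUSG00000087221, chr15:4020114-4027405, minus strand), a noncoding transcript. Its exons overlap 467 bases of Oxct1 exon, which is 12.6% of the exon length of Oxct1. Another opposite-strand gene within Oxct1, Gm15632 (chr15:4069226-4072032), overlaps none of its exons and had at most 1 count in a library. The gene opposite Bdh1 is Gm15743 (chr16:31427876-31429776, minus strand), whose exon overlaps 533 bases, or 13.7%, of Bdh1 exon. The libraries were made with a strand-marking protocol, but the strand setting of the counting is not given in the sources used here, and without it reads of a gene and of its opposite-strand partner cannot be told apart.

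Levels of the members were compared as cpm per kilobase of exon (TMM-scaled cpm divided by the length of the merged exons). Oxct1 was the highest, at 399 ± 12.5 cpm per kb (SD, n = 6) in WT and 347 ± 11.8 in cmGch1 KO. Acat1 followed at 190 ± 15.9 in WT and 158 ± 18.7 in cmGch1 KO, and Bdh1 was at 30.1 ± 5.19 and 30.1 ± 7.61. Acat2 was by far the lowest, at 1.77 ± 0.294 cpm per kb in WT and 1.83 ± 0.382 in cmGch1 KO. In either genotype the ranges of neighbours in this order did not overlap, so that the transcripts of the CoA transferase exceeded those of the dehydrogenase that precedes it in every library.

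**Figure D1:**
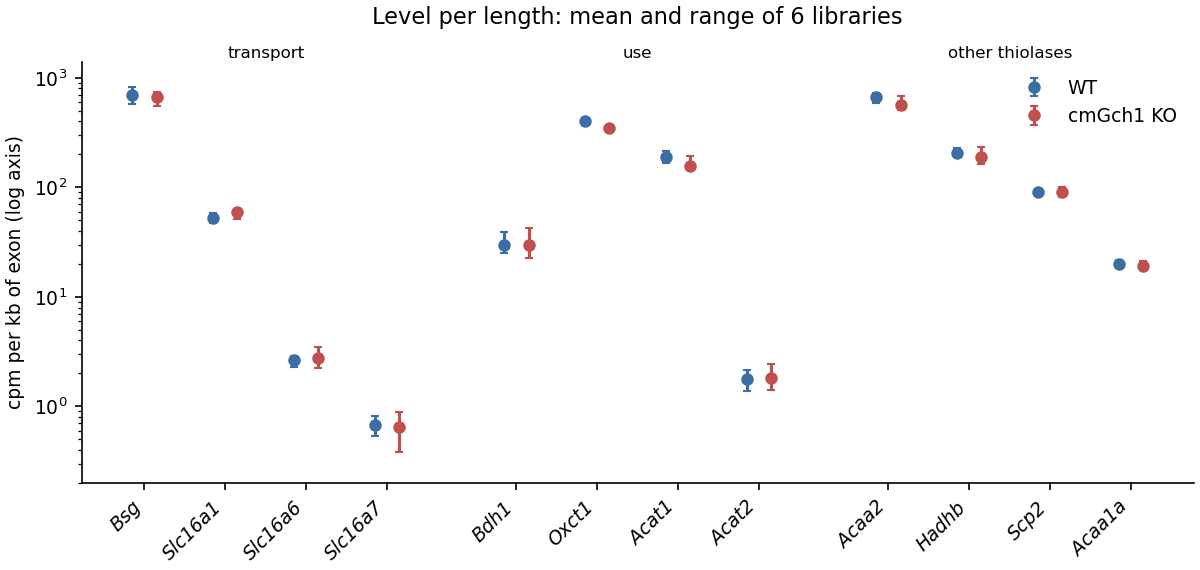
Level of each gene in cpm per kilobase of exon on a log axis, for ketone body transport and use and for other thiolases. Points are means of 6 libraries and bars span the lowest to the highest library. Oxct1 lies above Acat1, Bdh1 and Acat2 in both genotypes.

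Around them, the transporter partner Bsg (basigin) was at 697 ± 105 cpm per kb in WT and the monocarboxylate transporter Slc16a1 (MCT1), which carries ketone bodies and lactate across the plasma membrane, at 52.3 ± 3.86. Slc16a1 was thus above Bdh1 and below Acat1 and Oxct1 in WT, with ranges that did not overlap.

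The paralogs were close to undetected. Acat3 had 0 to 7 counts and Bdh2 had 2 to 22 counts per library, too few to be tested, and counts of Oxct2a and Oxct2b were not analysed here. Acat2 shares much of its sequence with Acat3, as 52.3% of the 25-base windows and 40.7% of the 75-base windows of the longest protein-coding Acat2 transcript occur in Acat3. Reads that match both could be split or left uncounted, so that the low level of Acat2 is uncertain. The longest protein-coding transcripts of Oxct1 and Bdh1 shared no 25-base window with Oxct2a, Oxct2b or Bdh2.

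Between the genotypes, the members had unlike fitted values. Over all 12 libraries, Oxct1 and Acat1 were lower in cmGch1 KO by 13.0% and 16.8%, whereas Bdh1 and Acat2 were within 3% of the WT level. None of the 4 passed an adjusted p of 0.05 (0 of 4, against 1.12% of all genes tested in either direction). At an unadjusted p under 0.05, 2 of 4 were lower, against 4.51% of all genes, and 0 of 4 were higher, against 7.01%. The median log2 fold change of the 4 was -0.10, against -0.0095 over all 11225 genes tested. The groups did not overlap for 1 of 4, Oxct1, as for 0.802% of all genes in the lower direction, and no member was separated in the higher direction, as 1.07% of all genes were. The split of Bdh1 from Oxct1 and Acat1 rested on the 2 libraries with Xist. Without them the log2 fold changes were -0.22 for Bdh1, -0.20 for Oxct1, -0.23 for Acat1 and 0.015 for Acat2.

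Bdh1 lay between 97.1 and 152 cpm in WT (median 109) and between 88.7 and 167 cpm in cmGch1 KO (median 107). WT replicates 1 and 3 and cmGch1 KO replicates 2 and 3 were the high libraries, and the groups overlapped over most of their range. The means were both 117 cpm, with SDs of 20.2 in WT and 29.6 in cmGch1 KO (n = 6), and with a log2 fold change of 0.00070 (SE 0.153, adjusted p = 0.9996, 95% interval -0.33 to 0.33). The interval runs from -20.3% to 25.6% of the WT level, and a difference within it is compatible with these values.

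The equal means of Bdh1 rested on cmGch1 KO replicates 2 and 3. These 2 libraries, which had Xist, were at 167 and 135 cpm, above the other 4 cmGch1 KO libraries at 88.7 to 116 cpm. Without them the log2 fold change was -0.22 (SE 0.126, adjusted p = 0.828), and it was -0.19 (adjusted p = 0.906) with a covariate for sex-linked expression. No WT library had Xist, so that the level of Bdh1 in such libraries cannot be compared between the genotypes. Gm15743, on the opposite strand, was at 0.790 to 2.11 cpm in WT and 0.688 to 1.71 cpm in cmGch1 KO, far below Bdh1.

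Oxct1 lay between 1418 and 1541 cpm in WT (median 1486) and between 1220 and 1323 cpm in cmGch1 KO (median 1298). Each of the 6 cmGch1 KO libraries was below each of the 6 WT libraries, and the spread within a genotype was small. The means were 1476 ± 46.2 and 1283 ± 43.6 cpm (SD, n = 6), with a log2 fold change of -0.20 (SE 0.0544, 95% interval -0.32 to -0.08). The two-sided exact permutation test over all 924 ways of dividing the libraries gave p = 0.00216, the smallest that 6 against 6 can give, without adjustment for the number of genes. In edgeR's quasi-likelihood fit the unadjusted p was 0.00234, at rank 225 of the genes tested, and the adjusted p was 0.117.

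The difference in Oxct1 was about as large without the 2 libraries with Xist (log2 fold change -0.20, exact permutation p = 0.00476). It was -0.13 when libraries were scaled by total counts alone (unadjusted p = 0.0612). That scaling moved the median of all genes from -0.0095 to 0.066, so that relative to the median Oxct1 was lower under either. Oxct1 was past the adjusted threshold in 2 of 24 other settings, the Wald test of DESeq2 (adjusted p = 5.02e-05) and 1 surrogate variable in the fit (adjusted p = 0.0128). These settings also called more of all genes. DESeq2 called 155 lower and 218 higher, and the surrogate variable 334 and 302, against 50 and 76 in the main fit.

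**Figure D2:**
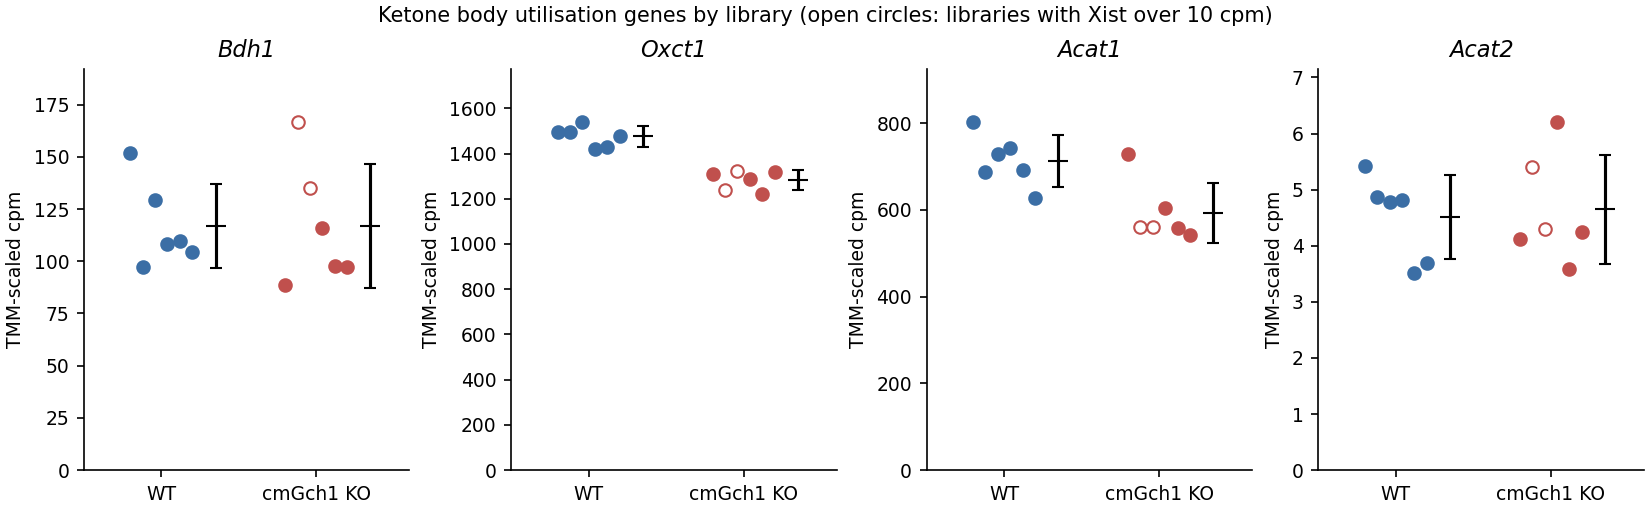
TMM-scaled cpm of the 4 genes in each WT and cmGch1 KO library, with mean and SD of 6 libraries beside the points. Open circles are the 2 libraries with Xist over 10 cpm, which hold the highest Bdh1 values of cmGch1 KO. Oxct1 is the gene whose 2 groups are apart, and 1 cmGch1 KO library keeps Acat1 in the WT range.

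Acat1 lay between 627 and 804 cpm in WT (median 710) and between 542 and 730 cpm in cmGch1 KO (median 561). Of the 6 cmGch1 KO libraries, 5 were below each WT library, and replicate 1, at 730 cpm, was above 4 of the 6. The means were 713 ± 59.6 and 593 ± 70.1 cpm (SD, n = 6), with a log2 fold change of -0.27 (SE 0.0844, adjusted p = 0.191, 95% interval -0.45 to -0.08). The two-sided exact permutation test gave p = 0.0152, unadjusted, and without the 2 libraries with Xist 0.0667.

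Whether Acat1 passed the threshold depended on the setting. Without cmGch1 KO replicate 1 the log2 fold change was -0.33 and the adjusted p 0.0270. Without any other single library the adjusted p stayed over 0.05. With all 12 libraries and 1 surrogate variable in the fit it was 0.00983, at a log2 fold change of -0.27. Without cmGch1 KO replicate 1, 97 of all genes were called lower, and with the surrogate variable 334, against 50 in the main fit. No gene is annotated on the opposite strand within Acat1, and its nearest neighbour, Cul5, is 4199 bases away.

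Acat2 lay between 3.51 and 5.43 cpm in WT (median 4.79) and between 3.58 and 6.21 cpm in cmGch1 KO (median 4.27), from 81 to 207 counts per library. The groups overlapped, with 1 cmGch1 KO library, replicate 4, above each WT library. The log2 fold change was 0.04 (SE 0.152, adjusted p = 0.965, 95% interval -0.29 to 0.37), or -17.9% to 29.0%.

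Over the 24 other settings of the fit and of the libraries, the log2 fold change of Oxct1 lay between -0.22 and -0.13 and that of Acat1 between -0.37 and -0.19. Bdh1 lay between -0.68 and 0.090 and Acat2 between -0.18 and 0.12. The directions of Oxct1 and Acat1 thus held under these settings, and those of Bdh1 and Acat2 did not.

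**Figure D3:**
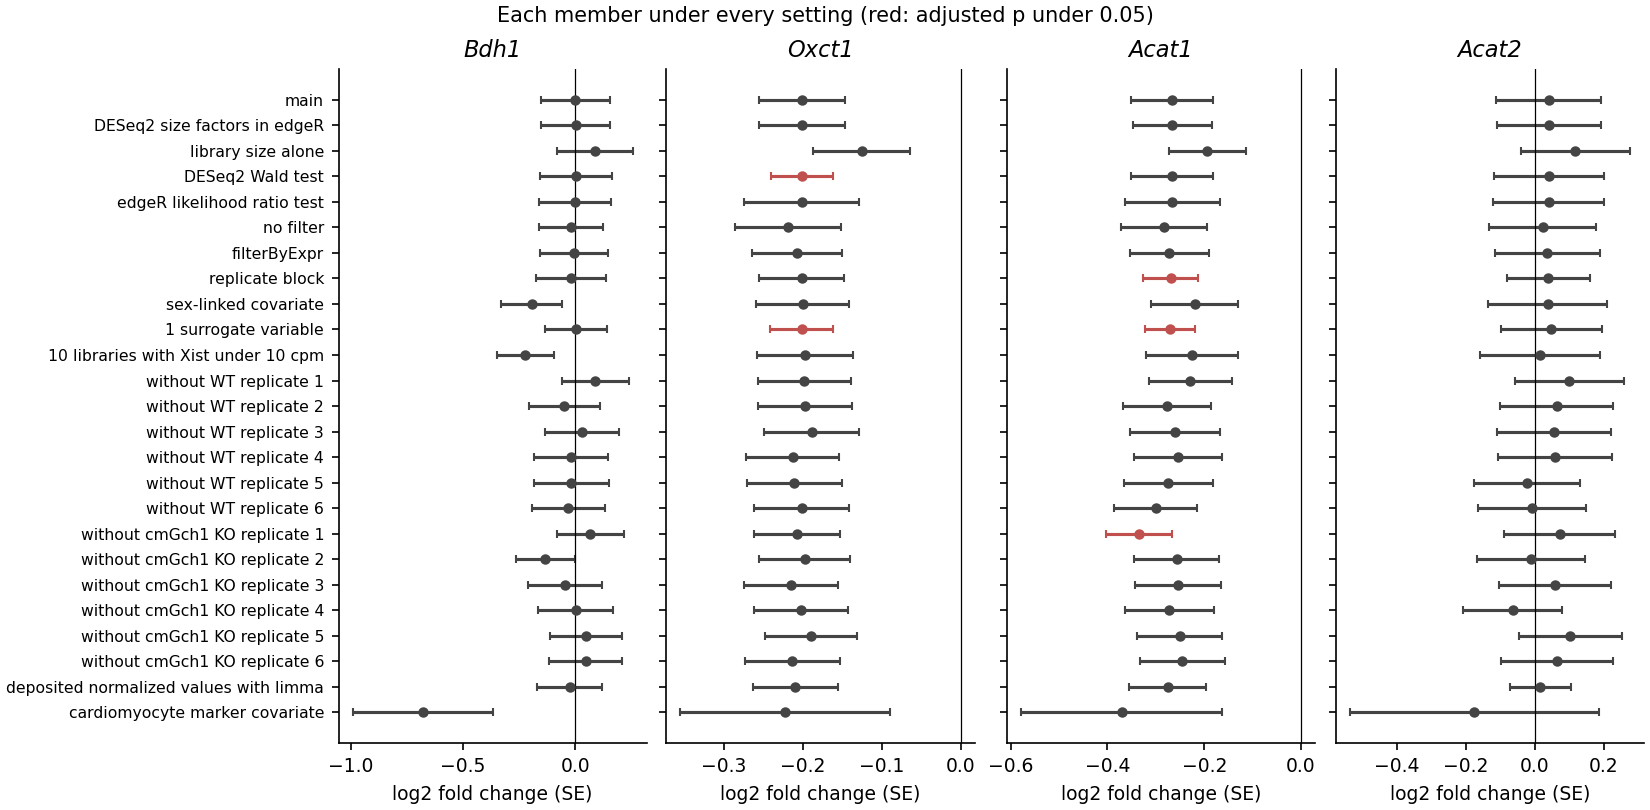
Log2 fold change and SE of each member under each setting of the fit, red where the adjusted p is under 0.05. Oxct1 and Acat1 are below 0 under every setting drawn, whereas Bdh1 and Acat2 change sign.

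Within a library, the ratio of 2 members does not depend on the scaling between libraries. The log2 ratio of Oxct1 to Acat1 was 1.05 ± 0.126 in WT and 1.12 ± 0.154 in cmGch1 KO (SD, n = 6), a difference of 0.068 that was smaller than either SD. The log2 ratio of Bdh1 to Oxct1 was -3.68 ± 0.223 in WT and -3.49 ± 0.360 in cmGch1 KO, and that of Bdh1 to Acat1 was -2.62 ± 0.161 and -2.37 ± 0.439. The differences of 0.18 and 0.25 shrank to -0.015 and 0.018 without the 2 libraries with Xist. The pair with Xist thus had more Bdh1 relative to Oxct1 and Acat1 than the other cmGch1 KO libraries.

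Over the 12 libraries, Oxct1 and Acat1 had the highest correlation of the 6 pairs of members (log2 cpm, Pearson r = 0.716, permutation p = 0.0115, adjusted over the 6 pairs 0.0688; Spearman rho = 0.566, permutation p = 0.0594, adjusted 0.356). It was 0.640 without the 2 libraries farthest from the median of Oxct1, and 0.657 without those with Xist. The libraries fall into separate genotype clusters for Oxct1, and the pooled value rests on them: r was 0.0804 within WT, 0.265 within cmGch1 KO and 0.188 after centring within genotype. Bdh1 and Acat2 had r = 0.535 (adjusted permutation p = 0.220), and 0.539 after centring. The other 4 pairs had r between 0.00912 and 0.161. Of these, the pairs with Bdh1 rested on the 2 libraries with Xist. Without them r was 0.526 for Bdh1 and Oxct1, against 0.0337 over all 12, and 0.511 for Bdh1 and Acat1, against 0.00912. Within genotypes, Bdh1 and Acat1 had r = 0.781 in WT and -0.440 in cmGch1 KO, over 6 libraries each. Acat1 and Acat2 had 0.769 and 0.00774, and no difference between these was tested.

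The genes most like each member by Pearson r of log2 cpm over the 12 libraries were taken from the 11225 genes tested, as a description. For Oxct1 they were Amy1 (r = 0.943), Mccc2 (0.927), a subunit of the leucine-degrading methylcrotonyl-CoA carboxylase, and Dcakd (0.921). All 3 were lower in cmGch1 KO by their fitted values, Amy1 and Dcakd at an adjusted p under 0.05 (log2 fold changes -1.37 and -0.73), and with values centred within genotype their r dropped to between 0.435 and 0.685. For Acat1 they were Mipep (0.984), a mitochondrial peptidase, Hibadh (0.973), an enzyme of valine breakdown, and BC004004 (0.970), with r of 0.940 to 0.968 after centring. Centring thus moved the r of the genes most like Acat1 far less than that of the genes most like Oxct1.

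For Bdh1 the most alike were Armc6 (0.857), Cyb5rl (0.856) and Faap100 (0.854), whose adjusted p for genotype was 0.764 or more. For Acat2 they were Zfp513 (0.943), Fam207a (0.886) and Dmtn (0.874). No gene was among the 3 most alike for 2 members.

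Of the opposite-strand genes, Gm15743 and Gm15632 were below the cpm minimum and were not tested. BC037032, which overlaps the start of Oxct1 on the opposite strand, had an adjusted p under 0.05, as 0.445% of all genes did in the lower direction. It lay between 5.53 and 7.05 cpm in WT and between 3.51 and 5.42 cpm in cmGch1 KO, and each cmGch1 KO library was below each WT library. The means were 6.26 ± 0.567 and 4.37 ± 0.654 cpm (SD, n = 6), with a log2 fold change of -0.52 (SE 0.113, adjusted p = 0.0407, 30.2% lower). The call held in 3 of the 12 fits that left out 1 library, with adjusted p between 0.0241 and 0.114 and log2 fold changes between -0.59 and -0.47. The adjusted p was also over 0.05 with library size as the scaling (0.0777), without a filter on low counts (0.0580), with sex-linked expression in the fit (0.102) and without the 2 libraries with Xist (0.0601). With a replicate block it was 0.0702. BC037032 had 76 to 231 counts per library against 26802 to 51671 for Oxct1. With the strand setting unknown, some of these counts may belong to either gene.

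**Figure D4:**
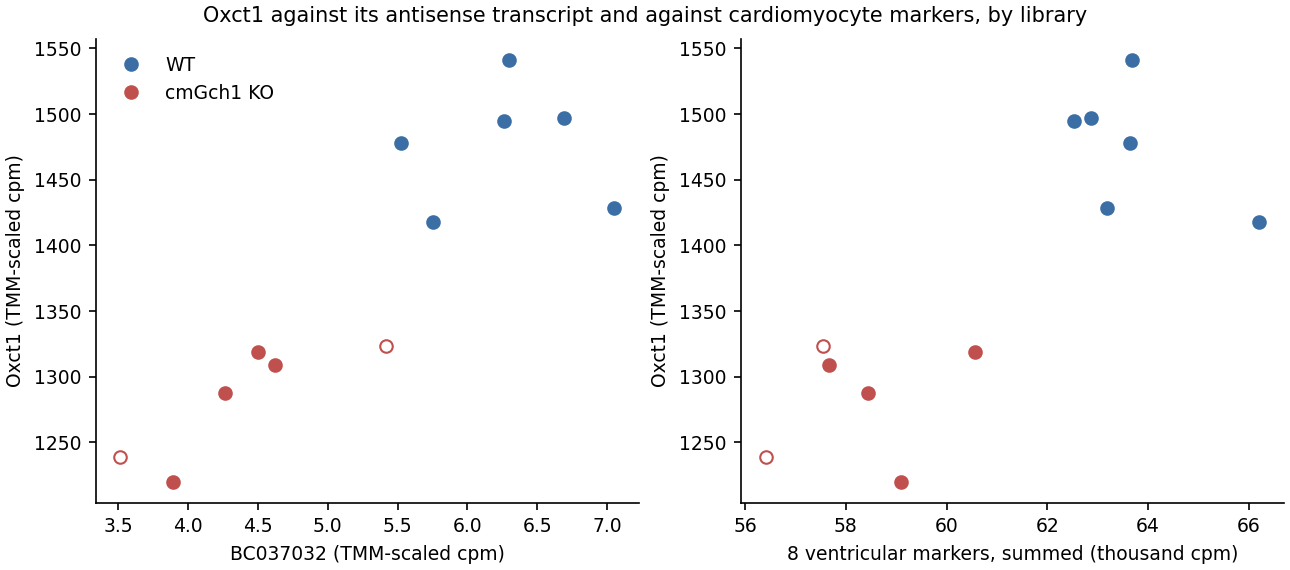
Oxct1 in each library against BC037032 on the opposite strand (left) and against the summed cpm of 8 ventricular cardiomyocyte markers (right), with neither axis starting at 0. Open circles are the libraries with Xist over 10 cpm. The genotypes are apart on all 3 measures, with cmGch1 KO at the lower left.

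The tissue expressed markers of cardiomyocytes. Those listed as atrial (Myl4, Myl7, Sln and Bmp10) summed to 7.6 to 283.9 cpm in WT and to 45.1 to 187.3 cpm in cmGch1 KO. The summed level of 8 ventricular cardiomyocyte markers (Myh6, Myl2, Tnnt2, Tnni3, Actc1, Ttn, Pln and Myl3) lay between 62530 and 66207 cpm in WT and between 56405 and 60564 cpm in cmGch1 KO, without overlap, a mean difference of -8.48%. Of the 8 markers, 7 were below 0 in log2 fold change, as were 53.3% of all genes tested, and none had an adjusted or an unadjusted p under 0.05 by edgeR. In whole tissue, fewer cells of a type and less RNA per cell cannot be told apart.

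Per 1000 cpm of these markers, Oxct1 was at 23.2 ± 1.04 in WT (21.4 to 24.2) and 22.0 ± 0.821 in cmGch1 KO (20.6 to 23.0). The groups then overlapped, with a difference of -5.05% (two-sided exact permutation test, p = 0.0584). Acat1 was at 11.2 ± 0.973 and 10.2 ± 1.30, a difference of -9.10% (p = 0.158 by the same permutation test). Bdh1 and Acat2 were 9.61% and 12.7% higher than WT on this scale (exact permutation p = 0.556 and 0.327). The marker sum was lower in each cmGch1 KO library than in each WT library, so dividing by it raises cmGch1 KO relative to WT for any gene. The smaller differences in Oxct1 and Acat1 on this scale follow from that division and are not a separate test.

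The tissue also held markers of other cells. The summed level of 5 macrophage markers lay between 69.3 and 81.3 cpm in WT and between 74.8 and 97.9 cpm in cmGch1 KO, and its 4 tested markers had an unadjusted p under 0.05 in the higher direction, against 7.01% of all genes. That of 6 fibroblast markers was 741 to 990 and 849 to 1028 cpm. All 6 were above 0 in log2 fold change, where 53.3% of all genes tested were below 0. Of the 6, 2 were higher at an unadjusted p under 0.05, against 7.01% of all genes. Of the 6 smooth muscle and pericyte markers, 4 were below 0 in log2 fold change: Tagln (-0.40), Myh11 (-0.24), Kcnj8 (-0.068) and Rgs5 (-0.064). Pdgfrb was at 0.12. Acta2 was the 1 called higher (log2 fold change 0.66, SE 0.107, adjusted p = 0.00672), against 0.677% of all genes tested. It lay between 113 and 144 cpm in WT and between 162 and 242 cpm in cmGch1 KO. These groups did not overlap, as for 1.07% of all genes in the higher direction. The sum of the 6 markers was 887.7 to 999.7 cpm in WT and 904.9 to 1047 cpm in cmGch1 KO. All 5 erythroid markers were below 0, as were 53.3% of all genes tested, the mean of their sum differed by -24.8%, and the groups overlapped. Hepatocyte markers summed to at most 38.5 cpm, in WT replicate 2. The part of these cell types in the values of the members was not tested.

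The enzymes and carriers around the members were described from 6 lists. Of the 45 listed genes tested other than the members, 1 was called lower (0.445% of all genes tested) and none higher (0.677%) at an adjusted p under 0.05. That gene was Bckdhb, in isoleucine breakdown, and no carrier was called.

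Carriers come first on the route. Of 7 listed genes of ketone body transport 5 were tested, and none was called. Slc16a1 alone, 1 of 5, had an unadjusted p under 0.05, against 7.01% of all genes in the higher direction. Slc16a1 lay between 207 and 257 cpm in WT (median 231) and between 230 and 277 cpm in cmGch1 KO (median 268). The groups overlapped, with 4 of 6 cmGch1 KO libraries above each WT library, and the log2 fold change was 0.18 (SE 0.0681, adjusted p = 0.282; exact permutation p = 0.0152, two-sided). Without the 2 libraries with Xist it was 0.16 (adjusted p = 0.779). The fitted directions of Slc16a1 and of Oxct1 were thus opposite along 1 route, and neither passed the adjusted threshold. With 1 surrogate variable in the fit both passed it, Slc16a1 at an adjusted p of 0.0392 and Oxct1 at 0.0128. That fit called 334 of the 11225 genes lower and 302 higher, against 50 and 76 in the main fit.

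Succinyl-CoA, the donor that Oxct1 uses, is made and used by the TCA cycle. All 6 listed genes had a log2 fold change under 0 (median -0.14), as had 53.3% of all genes tested, and 4 of 6 were lower at an unadjusted p under 0.05, against 4.51% of all genes. These were Ogdh (-0.20, SE 0.0786) and Dlst (-0.13, SE 0.0495), subunits of 2-oxoglutarate dehydrogenase, and Suclg1 (-0.19) and Suclg2 (-0.14) of succinyl-CoA ligase. None passed the adjusted threshold (adjusted p from 0.274 to 0.317). Only Dlst had groups that did not overlap, 661 to 689 cpm in WT and 597 to 636 cpm in cmGch1 KO, as for 0.802% of all genes in the lower direction.

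Isoleucine breakdown ends, like ketone use, with the thiolase Acat1. All 8 listed genes were below 0 (median -0.17), against 53.3% of all genes tested. At an unadjusted p under 0.05, 4 of 8 were lower (4.51% of all genes), and 1 was called lower (0.445% of all genes). Bckdhb, a subunit of the branched-chain keto acid dehydrogenase, lay between 51.7 and 60.5 cpm in WT and between 36.7 and 48.1 cpm in cmGch1 KO. Each cmGch1 KO library was below each WT library, and Bckdhb fell by 0.46 on the log2 scale (SE 0.0776, adjusted p = 0.00860). Without the 2 libraries with Xist the log2 fold change of Bckdhb was -0.46 (adjusted p = 0.0476). Of the other subunits of the complex, which did not pass the adjusted threshold, Bckdha was at -0.39 (adjusted p = 0.0795), Dbt at -0.35 (adjusted p = 0.123) and Dld, shared with 2-oxoglutarate dehydrogenase, at -0.073 (adjusted p = 0.690). Acadsb, of the next step, was at -0.16 (adjusted p = 0.327).

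Of the other thiolases 4 of 5 were tested and none was called. Acaa2, of fatty acid oxidation, lay between 895 and 1103 cpm in WT and 766 and 1040 cpm in cmGch1 KO (log2 fold change -0.22, SE 0.0862, adjusted p = 0.303). Scp2 had means of 314 cpm in both genotypes (SD 14.5 in WT and 29.5 in cmGch1 KO). The value of Acaa2 was near that of Acat1, and their difference was not tested.

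Sterol synthesis, where Acat2 acts, had 15 of 17 genes tested, with a median log2 fold change of 0.0065 and none called. Aacs, which activates acetoacetate in the cytosol without Oxct1, was at 4.53 ± 0.679 cpm in WT hearts and 5.14 ± 0.897 in cmGch1 KO (adjusted p = 0.701). At an unadjusted p under 0.05, 1 of 15 was lower, Fdft1 (-0.34, SE 0.118), against 4.51% of all genes. At the same threshold 2 of 15 were higher, Dhcr7 (0.32, SE 0.134) and Srebf2 (0.18, SE 0.0786), against 7.01% of all genes. The cytosolic list thus had values on both sides of 0, like Acat2 itself.

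Of 10 regulators listed for this pathway 8 were tested and none had an unadjusted p under 0.05. Ppara, the fatty acid sensor, was at 41.2 ± 9.0 and 34.2 ± 9.49 cpm (log2 fold change -0.26, SE 0.178), and Ppargc1a, a coactivator of mitochondrial genes, at 95.4 ± 20.8 and 79.5 ± 17.5 cpm (log2 fold change -0.26, SE 0.160). The largest fitted rise of the list was in Ppargc1b (0.10, SE 0.185).

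**Figure D5:**
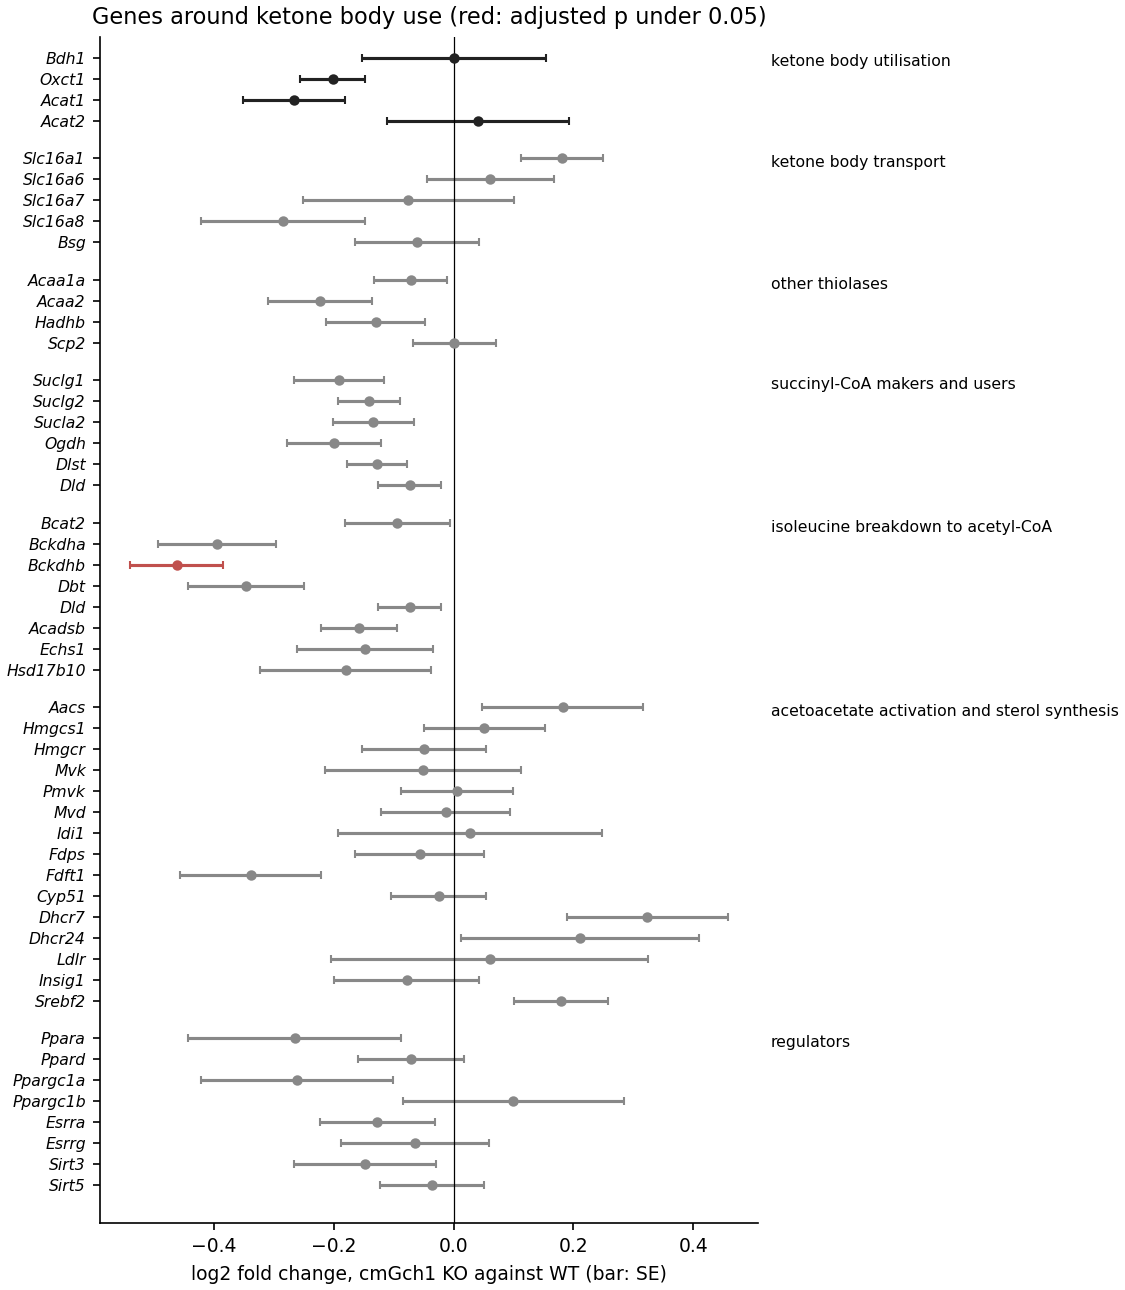
Log2 fold change between cmGch1 KO and WT, with its SE, for the 4 members (black) and the tested genes of the lists around them (grey), by list. Bckdhb, in red, is the 1 gene with an adjusted p under 0.05. Over all 12 libraries the members split into Oxct1 and Acat1 below 0 and Bdh1 and Acat2 near 0. Without the 2 libraries with Xist, which are not left out here, Bdh1 was at -0.22.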

How the data were processed

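Left ventricles of 6 WT and 6 cmGch1 KO mice were sequenced as stranded paired-end libraries. The authors aligned reads with HISAT2 to GRCm38, counted them with featureCounts and deposited raw counts per gene, and also deposited normalized values on a log2 scale, made by a tool not given in the sources used here. Every column was mapped to a sample by its label. Symbols and loci were taken from GENCODE M21 (26545 of 26921 identifiers, 98.6%). The 11225 genes that exceeded 3 cpm in 6 or more libraries were tested with TMM scaling and the quasi-likelihood test of edgeR 4.0.16 in R 4.3.3, with Benjamini-Hochberg adjustment over all of them and no covariate. The authors' methods name edgeR, the cpm minimum and an FDR of 0.05. Single genes were also tested in cpm by a two-sided exact permutation test over 924 splits, unadjusted, and correlations by 100000 permutations. A fit to simulated counts with 200 changed genes was checked first. Promoters came from RefSeq.

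Depth was 19921398 to 37917806 counts. A count of 0 allows up to 3 counts, which covers counting error only, as reads carry no molecular identifiers.

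Alternatives were DESeq2 1.42.0, size factors, library size, the likelihood ratio test, other filters, a replicate block, sex-linked expression, a surrogate variable (sva 3.50.0), limma 3.58.1 on the deposited log2 values and leaving out libraries. The marker ratio and the marker covariate were added after seeing the data. The members, lists and the rule for named genes (members, checks of the libraries, list genes with p under 0.05, paralogs, transporters, extremes of other lists, the 3 most alike, neighbours) were chosen with earlier results of these data known. Some listed genes are not reported here.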

Additional observations from a re-analysis of the deposited data

Results flagged for a closer look

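Over 22 groups of 6 libraries examined for a single library far from the rest, 2 had one, where chance gives about 1 in 20. Acat1 was at 730 cpm in cmGch1 KO replicate 1, against 542 to 605 cpm in the other 5 cmGch1 KO libraries. The summed ventricular cardiomyocyte markers were at 66207 cpm in WT replicate 4, against 62530 to 63690 cpm in the other 5 WT libraries. No cause of these values was tested.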

How the results depend on the processing

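Oxct1 and Acat1 were below 0 in all 24 alternatives of their log2 fold change, while Bdh1 and Acat2 changed sign without passing the threshold in any. For Bdh1 the value was -0.018 without a filter, -0.0040 with filterByExpr, -0.19 with sex-linked expression, -0.22 in the 10 libraries without Xist (difference -17.0 cpm), -0.025 on the deposited log2 values and -0.68 with the marker covariate. Acat2 was -0.18 with the marker covariate, which is nearly collinear with genotype. Leaving out 1 library gave -0.13 to 0.090 for Bdh1 (-9.98 to 6.999 cpm), -0.21 to -0.19 for Oxct1, -0.33 to -0.23 for Acat1 and -0.064 to 0.10 for Acat2 (-0.180 to 0.346 cpm).

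Oxct1 passed the threshold with DESeq2 (-0.20) and with 1 surrogate variable (-0.20), and Acat1 with the surrogate variable (-0.27, adjusted p = 0.00983). Members called were 1 with DESeq2, 2 with the surrogate variable and 0 to 1 without 1 library. The exact tests lost their call for Acat1 in 10 libraries (-104.6 cpm) and, per marker, for Oxct1 (-5.05%) and Acat1 (-9.10%).

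Same-numbered libraries correlated from -0.125 to 0.670, and in 3 of 6 cases the best match had the same number. These values do not settle whether the replicate numbers pair the libraries. With a replicate block Bdh1 was at -0.018, Acat1 at -0.27 (adjusted p = 0.0495) and 1 member was called, with 76 genes lower and 112 higher and 2 list genes lower. BC037032 was at -0.52 (adjusted p = 0.0702).

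Genes lower and higher numbered 155 and 218 with DESeq2, 80 and 145 with the likelihood ratio test, 24 and 40 with sex-linked expression, 334 and 302 with the surrogate variable, 18 and 20 in 10 libraries, and 30 to 97 and 45 to 116 without 1 library (50 and 76 as reported, 39.7% lower). Library size gave 36 and 116, or 23.7% lower, and the surrogate variable 52.5%. The marker covariate gave 0 and 0 (216 and 290 at an unadjusted p under 0.05). List genes lower were 5 with DESeq2, 2 with the likelihood ratio test, 7 with the surrogate variable (1 higher), 0 with the marker covariate and 1 to 2 without 1 library. Medians moved to -0.064 for succinyl-CoA by library size and, with the marker covariate, to -0.32 for isoleucine, -0.26 for sterols and 0.062 for regulators; the isoleucine median was -0.27 to -0.145 without 1 library. By longest transcript, levels in cpm per kb were 37.0 for Bdh1 in WT, 419 and 364 for Oxct1 in WT and cmGch1 KO, and 210 for Acat1 in WT, in the same order. The cause of these shifts was not tested.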
